A study of Homo sapiens with 12 samples.

Results

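The replication-dependent histone genes were taken as the transcript clusters of the array whose single gene symbol in the platform annotation is H1-1 to H1-5 or begins with H2AC, H2BC, H3C or H4C and a number. This gave 29 genes of the 22465 named by a single symbol, among 67528 clusters in all. They are 5 H1, 8 H2A, 14 H2B, 0 H3 and 2 H4 genes, read by 30 clusters because H2BC11 has 2 of them, and the brighter cluster stands for that gene. A further 37 clusters carry several histone symbols each (8 of H2A, 3 of H2B, 13 of H3 and 13 of H4) and are described apart, by the cluster's identifier and the symbol listed first.

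Both HT-29 and SW480 are long-established human lines grown from colorectal adenocarcinomas. Cells of each line were kept for 72 h in folic acid-free medium with 10000 ng/mL folic acid (FA) or with 0 ng/mL, and total RNA was hybridised to Human Transcriptome Array 2.0. The 4 groups were FA-treated HT-29, untreated HT-29, FA-treated SW480 and untreated SW480, with 3 arrays in each. Values are log2 signals, so a log2 difference of 1 is a doubling, and signals of different clusters are not set against each other because probes differ in brightness. FA was dissolved in NaOH and the 12 arrays carry no label for the solvent alone, so FA and its solvent cannot be told apart. The labels call the replicates biological but name no separate cultures, so the p-values reflect no more than array-to-array spread.

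Most histone mRNA is made in S phase, when new DNA has to be packed. Core histones H2A, H2B, H3 and H4 form the nucleosome and the H1 linker histones bind the DNA between nucleosomes. The genes lie in clusters, most of them have no intron, and their mRNAs usually end in a conserved stem-loop in place of a poly(A) tail. NPAT and HINFP act in their transcription, SLBP binds the stem-loop, and the mRNA is degraded when DNA synthesis stops. Some of these genes, among them H2BC12, H2BC21, H2AC6 and H2BC5, are known to yield polyadenylated transcripts as well. H2AC1 and H2BC1 are known as testis histone genes. Folate supplies one-carbon units for thymidylate and purine synthesis, which links it to DNA synthesis.

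Among 12 markers of colon epithelium EPCAM (12.6 to 14.3), KRT8 (16.7 to 17.2), KRT18 (15.3 to 15.7) and KRT19 (10.95 to 13.4) had high mean log2 signals in all 4 groups, against array medians of 4.30 to 4.75. The intestinal markers CDX1 (3.75 to 4.11) and GPA33 (4.07 to 4.32) were below the array medians in every group, CDH17 read 3.86 to 4.62 and CDX2 4.49 to 5.53, and KRT20 averaged 3.78 in untreated SW480 and 13.2 in untreated HT-29. CDH1, VIL1 and LGALS4 averaged 8.21, 5.56 and 3.97 in untreated SW480 and 12.6, 7.59 and 9.64 in untreated HT-29. Among the markers of leukocytes, fibroblasts, endothelium and red blood cells LYZ, which encodes lysozyme, was the exception, with 5.05 in untreated SW480 and 18.3 in untreated HT-29, and the others stayed between 3 and 5.03. One array stood apart. Replicate 3 of untreated HT-29 correlated at r of 0.944 to 0.954 with the other HT-29 arrays, which correlated at 0.988 to 0.995 among themselves. On that array 26 of the 29 histone genes and 35 of the 37 clusters with several symbols lay below the mean of the other untreated HT-29 arrays, with median deviations of -0.59 and -1.24 against 0.16 for all clusters. Among clusters with a mean signal of 8 to 11 the median deviation was -0.88 for 8 histone genes and -0.72 for 5005 clusters in all. For mean signals of 11 and above it was -2.64 for 4 histone genes and -0.86 for 1823 clusters. The counts that use untreated HT-29, and the values that this array moved most, are given with and without it.

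**Figure D1:**
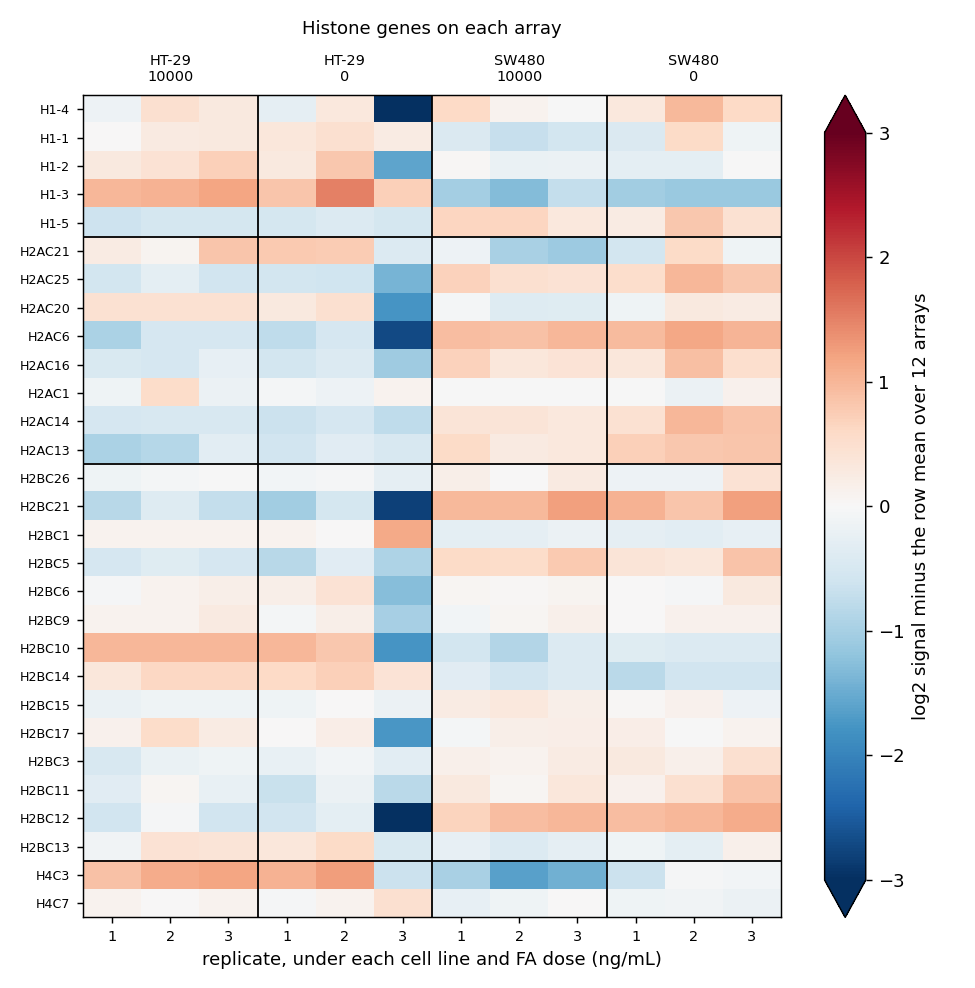
Log2 signal of each of the 29 histone genes (rows, by family) on each of the 12 arrays (columns, by cell line and FA dose in ng/mL), as the difference from the gene's mean over all arrays. Replicate 3 of untreated HT-29 is the array with the deepest blue column, and H1-3, H2BC14 and H4C3 run opposite to H2BC21, H2BC12 and H2AC6 between the lines.

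The RNA comes from bulk cells, so the arrays alone cannot tell fewer cells of a kind (such as cells in S phase) from less RNA per cell. By flow cytometry the study found no change in the cell cycle phases with any treatment. It reports S phase as dominant in SW480 and G0/G1 in HT-29. How these shares relate to the array signals was not tested. FA in SW480 went with lower mean signals of H2A, H3 and part of the H4 clusters, and of the 3 H2B clusters with several symbols. No histone gene passed adjustment over all clusters. Of the 29 genes 10 were higher (34.5%, against 39.7% of all clusters), 18 lower (62.1%, against 58.3%) and H2BC17 equal. The median log2 difference was -0.11, against -0.02 over all clusters. After median centring 14 were higher and 15 lower, with a median of -0.05, against 0.03 over all clusters. In limma 0 of 29 were called at an adjusted p under 0.05 (0.00592% of all clusters were), and 5 had an unadjusted p under 0.05 (4.06% of all clusters). The study's own thresholds, a change of at least 1.5-fold with an unadjusted p up to 0.05, were passed by 1 gene, H4C3, which was lower (background 0.705% lower and 0.336% higher). In all clusters these thresholds were passed by 227 higher and 476 lower, and after median centring by 314 higher and 363 lower. The count of genes past the thresholds was 0 without untreated SW480 replicate 2, without FA-treated SW480 replicate 2 or without FA-treated SW480 replicate 3, 2 without untreated SW480 replicate 1 and 3 without FA-treated SW480 replicate 1.

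H4C3 encodes histone H4 and lies at chr6:26103933-26104337 (GRCh38.p14). It read 11.05, 10.40 and 10.58 in FA-treated SW480, against 11.37, 11.98 and 11.95 in untreated SW480. All 3 treated arrays lay below all 3 untreated ones, and the difference was -1.09 ± 0.43 (SE) with a limma p of 0.031 before adjustment and an adjusted p of 1.0. In HT-29 the same gene read 12.91, 13.13 and 13.22 with FA, against 13.06, 13.27 and 11.39 without. There the low value was on replicate 3, and the log2 difference was 0.51 ± 0.43, or -0.08 without that array.

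All 8 H2A genes had lower means with FA in SW480, with a median log2 difference of -0.32. This was 7 of 8 with array weights, after quantile normalization, after median centring, and without untreated SW480 replicate 2 or 3. H2AC14 read 4.46, 4.45 and 4.38 in FA-treated SW480, against 4.54, 5.06 and 4.93 in untreated SW480. The treated signals lay near the medians of their arrays (4.48, 4.44 and 4.40) and may be background, so the size is uncertain. H2AC13 read 10.68, 10.37 and 10.41 with FA, against 10.82, 10.91 and 10.94 without. In both genes the groups did not overlap, with log2 differences of -0.41 ± 0.12 and -0.40 ± 0.16 (limma adjusted p = 1.0 for each). H2AC21 had the largest log2 difference of the family, -0.70 ± 0.41, with 10.07, 9.25 and 9.14 in FA-treated and 9.68, 10.79 and 10.09 in untreated SW480. Its groups overlapped, since the first treated array was above one untreated array. H2AC20 read 16.61, 16.28 and 16.29 with FA and 16.52, 16.95 and 16.91 without, and again the groups overlapped. The other 4 genes, H2AC25, H2AC6, H2AC16 and H2AC1, had log2 differences of -0.25, -0.12, -0.11 and -0.0033. H2AC1 read 3.40, 3.40 and 3.40 with FA and 3.40, 3.25 and 3.56 without. These signals lay below the array medians and may be background, so its direction is uncertain.

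The 14 H2B genes were split into 6 higher, 7 lower and 1 equal, with a median of -0.02 that became 0.04 after median centring, 0.03 without FA-treated SW480 replicate 1 and 0.02 without untreated SW480 replicate 3. H2BC15 was the histone gene with the highest log2 difference in SW480. It read 7.07, 7.15 and 7 in FA-treated SW480, against 6.87, 6.95 and 6.68 in untreated SW480, a log2 difference of 0.24 ± 0.08 (limma adjusted p = 1.0). Every treated array was above every untreated one. H2BC14 (7.92, 7.67 and 7.83 with FA, 7.44, 7.67 and 7.68 without) followed with 0.21 ± 0.12, and H2BC5 with 0.12 ± 0.17. H2BC12 had 13.47, 13.73 and 13.79 with FA and 13.74, 13.81 and 13.91 without, and H2BC21 had 9.72, 9.72 and 9.96 with FA and 9.78, 9.57 and 9.98 without. Neither was separated by treatment. H2BC11 had the lowest log2 difference of the family, -0.27, and its other cluster had 0.04.

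Among the linker histones H1-1 had the largest log2 difference in SW480. It read 4.06, 3.80 and 3.93 in FA-treated SW480, against 4.06, 5.07 and 4.37 in untreated SW480, or -0.57 ± 0.22 (limma adjusted p = 1.0), with the first arrays of both groups equal. Of these signals only the second untreated one lay above the median of its array. The others may be background, so the size is uncertain. H1-4 read 15.23, 14.72 and 14.61 with FA and 14.94, 15.60 and 15.22 without, or -0.40 ± 0.74. The first treated array was higher than the first untreated one, so the groups overlapped. H1-2, H1-3 and H1-5 differed by 0.10, 0.07 and 0.03. Over the whole set the groups did not overlap for 3 lower genes (10.3%, against 4.85% of all clusters), H4C3, H2AC14 and H2AC13, and for 1 higher gene, H2BC15 (background 2.99%).

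**Figure D2:**
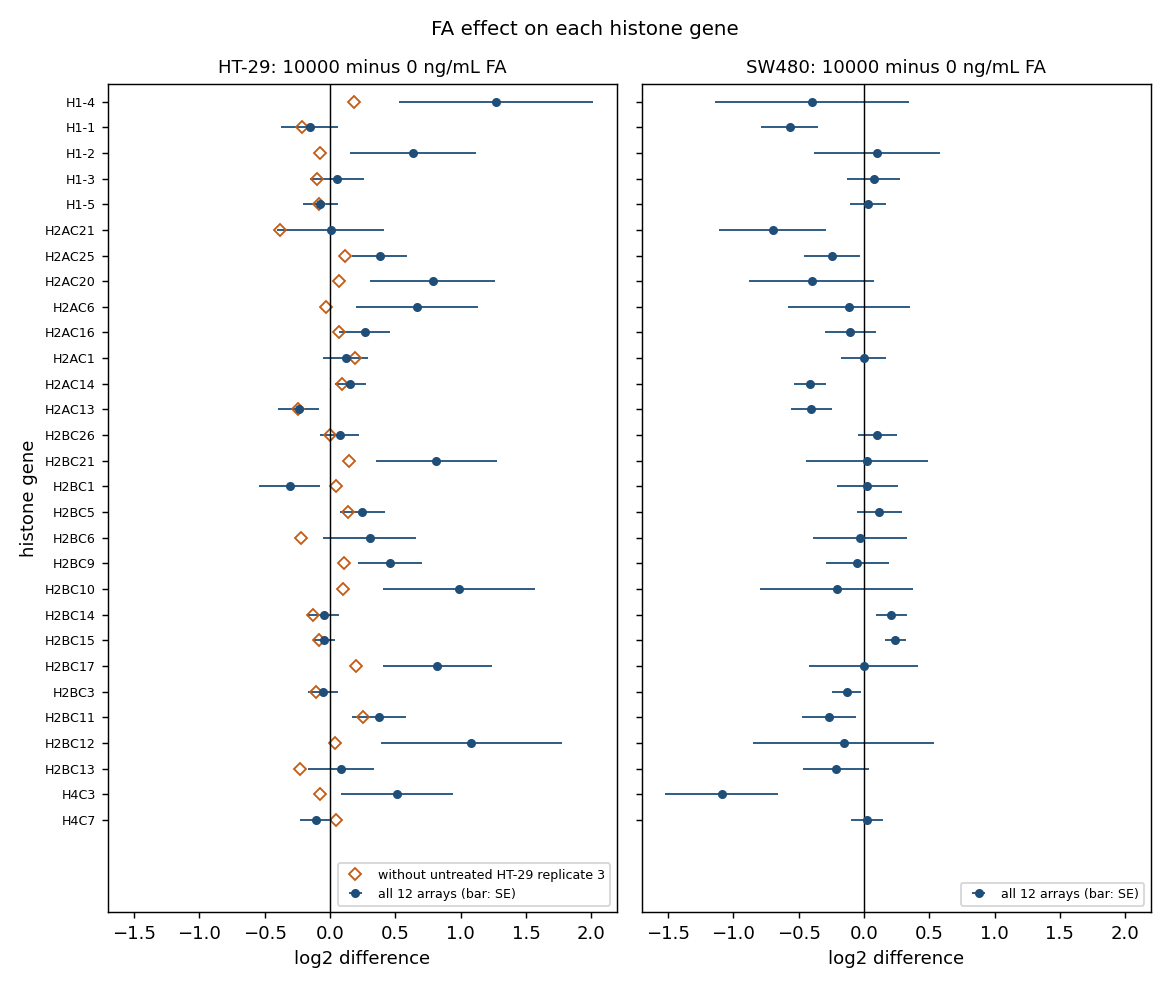
Log2 difference of each of the 29 histone genes between 10000 and 0 ng/mL FA in HT-29 (left) and SW480 (right), with bars of 1 SE from limma and open diamonds for the HT-29 value without untreated replicate 3. In HT-29 the diamonds gather near 0, and in SW480 H4C3 lies lowest at -1.09.

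Of the 37 clusters with several histone symbols 32 had lower means in FA-treated SW480 (86.5%, against 58.3% of all clusters) and 5 higher. The median log2 difference was -0.37. The groups did not overlap for 14 lower (37.8%, against 4.85% of all clusters) and 3 higher clusters (background 2.99%). None was called at an adjusted p under 0.05, and 8 had an unadjusted p under 0.05 in limma (4.06% of all clusters). The study thresholds were passed by 6, all lower (16.2%, background 0.705% lower and 0.336% higher). They were passed by 3 without untreated SW480 replicate 2, untreated SW480 replicate 3 or FA-treated SW480 replicate 2. These clusters list overlapping symbols (each of the 13 H4 clusters lists the same 14 genes) and may share transcripts, so they are not separate measurements. H4C3, H2AC13, H2AC16, H2AC20, H2BC6 and H2BC10, which have clusters of their own, are among these symbols too.

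All 13 H3 clusters had lower means with FA in SW480 as well, with log2 differences of -0.60 to -0.16 and a median of -0.37. They stayed 13 of 13 lower after quantile normalization, after median centring, with array weights, and without any 1 SW480 array. None was past the study thresholds. TC06001353 (H3C7 listed first) was lowest, with 10.60, 10.03 and 10.14 in FA-treated SW480 and 10.61, 11.08 and 10.87 in untreated SW480, a log2 difference of -0.60 ± 0.37 with groups set apart by a margin of 0.01. Groups did not overlap for 4 of the 13 (30.8%, against 4.85% of all clusters lower without overlap). The 3 H2B clusters with several symbols were all lower too, with log2 differences of -0.41 to -0.09 and a median of -0.31.

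Of the 13 H4 clusters 9 had lower and 4 higher means in FA-treated SW480, although all list the same genes. TC06001424 (H4C15 listed first) read 12.27, 11.41 and 12.01 with FA, against 12.99, 13.93 and 13.82 without. This is a log2 difference of -1.68 ± 0.43, or 3.21-fold, with a limma p of 0.0031 and an adjusted p of 0.81. TC06000266 (H4C11 listed first) read 7.74, 7.34 and 7.76 with FA, against 8.49, 8.89 and 9.10 without, or -1.21 ± 0.30 (limma adjusted p = 0.78). In both clusters the treated and untreated arrays were clearly apart. TC06001348 (H4C4 first) differed by -1.07, TC06001341 (H4C2 first) by -0.78 and TC06001428 (H4C13 first) by -0.72, also without overlap. The last of the 6 past the thresholds was TC06001343, which lists H2AC4 and H2AC8. It read 7.98, 7.36 and 7.95 with FA and 8.48, 8.69 and 9.53 without, or -1.14 ± 0.38.

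In the other direction TC06001355 (H4C8 listed first) read 9.75, 9.93 and 9.90 in FA-treated SW480, against 9.71, 8.92 and 9.38 in untreated SW480, a log2 difference of 0.52 ± 0.26 (limma adjusted p = 1.0). TC01003192 and TC01001173 (both with H4C15 first) differed by 0.42 and 0.39. The groups of all 3 did not overlap, with a margin of 0.04 in the first. TC12001272 (H4C16 first) differed by 0.03 with overlapping groups. H4C12 is one of the 14 genes of these clusters and has no cluster of its own, so no value is given for it. The study names H4C12 among the genes with the largest decreases after FA in SW480. Which cluster its value came from was not tested.

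**Figure D3:**
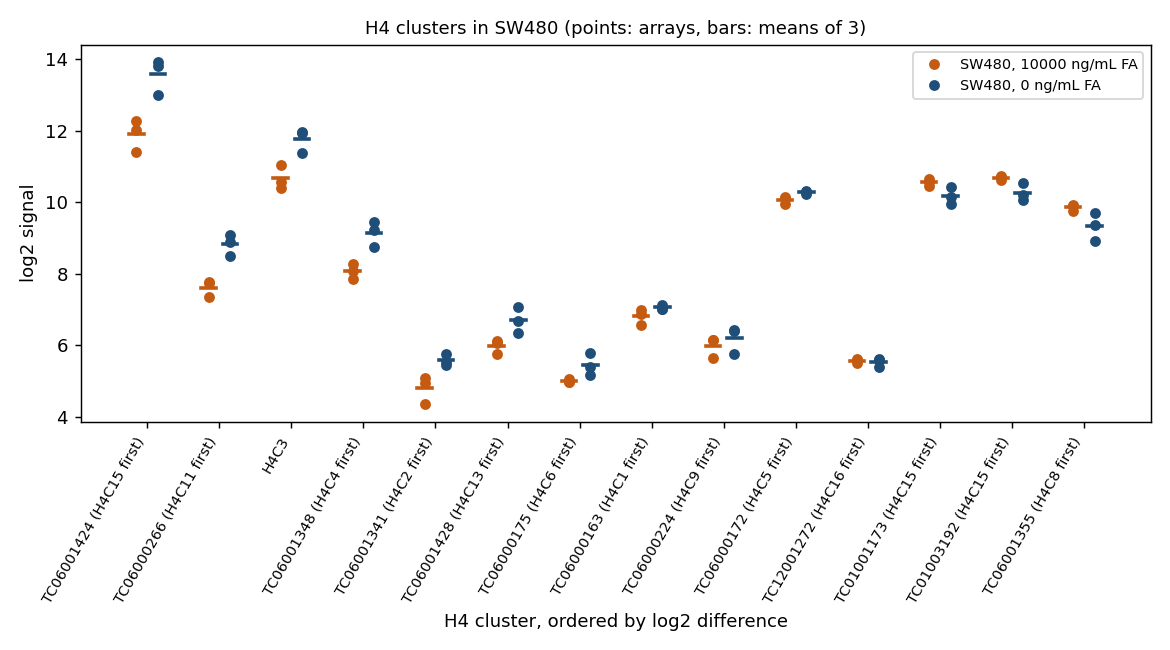
Log2 signal of H4C3 and the 13 H4 clusters with several symbols in SW480 (points are arrays, bars are means of 3), with FA-treated arrays left of untreated ones and clusters ordered by log2 difference. TC06001424 is farthest apart at the left (-1.68), and TC06001355 lies at the right with higher values after FA (0.52).

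The promoters of 4 H4 genes are shown because every one of these clusters lists all 4 and the clusters differed in opposite directions. The order of the symbols does not separate them, since TC06001424 and the clusters TC01003192 and TC01001173 all list H4C15 first. Their identifiers differ, however. That of TC06001424 carries the number of chromosome 6, and those of TC01003192 and TC01001173 carry that of chromosome 1, where H4C15 lies. The symbol listed first therefore need not name the locus that TC06001424 reads. The stretches are the 100 bases before the annotated start (RefSeq, GRCh38.p14), with the core of the H4 element, GGTCCG, in capitals.
H4C11, chr6:27823992-27824091, plus strand: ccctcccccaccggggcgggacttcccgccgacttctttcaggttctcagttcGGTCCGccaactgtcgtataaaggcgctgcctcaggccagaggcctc
H4C12, chr6:27831561-27831660, minus strand: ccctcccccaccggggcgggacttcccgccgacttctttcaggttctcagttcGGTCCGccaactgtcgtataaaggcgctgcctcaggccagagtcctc
H4C8, chr6:26285535-26285634, minus strand: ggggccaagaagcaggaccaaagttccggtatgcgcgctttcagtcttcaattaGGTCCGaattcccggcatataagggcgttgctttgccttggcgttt
H4C15, chr1:149861160-149861259, minus strand: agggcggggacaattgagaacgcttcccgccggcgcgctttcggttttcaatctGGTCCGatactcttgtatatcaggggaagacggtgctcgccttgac
H4C11 and H4C12 differed at 1 of these 100 bases and at 5 of the 300 in the table's window (250 bases before the start and 50 after). H4C11 differed at 68 of the 100 bases from H4C8 and at 67 from H4C15, position by position without gaps. The capitals begin 47 bases before the start in H4C11 and H4C12 and 46 before it in H4C8 and H4C15. The window of H4C14, which lies on chromosome 1 too, differed from that of H4C15 at 0 of 300 bases. Whether a cluster's probes read the gene listed first was not tested, so these sequences are not assigned to the signals.

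Promoter windows of 300 bases were found for 28 of the 29 genes and for 63 genes of the same naming pattern (H4C3 was not matched). Each motif was searched on both strands in the first listed window of each gene, and motifs overlapped one another in 3 of the 63 windows. GGTCCG was in 12 of 13 H4 windows (92.3%), in 1 of 16 H2A, 1 of 18 H2B, 1 of 11 H3 and 0 of 5 H1 windows, and in 11.2% of 27305 genes. The octamer ATTTGCAT was in 14 of 18 H2B windows (77.8%) and 11 of 16 H2A windows (68.8%), in 1 of 11 H3, 0 of 13 H4 and 0 of 5 H1 windows, and in 1.8% of all genes. CCAAT was in all windows of H1, H2A, H2B and H3 genes, in 3 of 13 of H4 and in 35.7% of all genes, and TATAAA in 53.8% to 75.0% of each family and 12% of all genes. Windows of neighbouring genes overlap, as described below, so the families are not counted independently.

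In HT-29 the FA comparison of the histone genes depended on replicate 3 of the untreated cells. Of the 29 genes 21 were higher and 8 lower with FA, with a median log2 difference of 0.25, against -0.08 over all clusters (0.07 after median centring of each array). Without that array 16 were higher and 13 lower, with a median of 0.04, against -0.005 over all clusters. In limma 0 were called (0% of all clusters) and 0 had an unadjusted p under 0.05 (5.44% of all clusters). The study thresholds were passed by 0 genes (background 0.580% higher and 0.780% lower, or 392 and 527 clusters, which became 650 and 230 after median centring), by 2 without untreated HT-29 replicate 1 and by 8 without untreated HT-29 replicate 2.

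H1-4 had the largest log2 difference, 1.27 ± 0.74 (limma adjusted p = 0.59). It read 14.47, 15.11 and 14.91 in FA-treated HT-29, against 14.35, 14.94 and 11.38 in untreated HT-29. Only the last array was away from the rest, and without it the difference was 0.19. H2BC12 read 12.23, 12.76 and 12.24 with FA and 12.22, 12.52 and 9.24 without, or 1.08, and 0.04 without that array. H2BC10 read 9.14, 9.15 and 9.14 with FA and 9.14, 8.95 and 6.38 without, or 0.99, and 0.10 without that array. These 3 genes share that pattern of a single low array.

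At the other end H2BC1 read 3.58 on all 3 FA-treated arrays, against 3.58, 3.49 and 4.60 in untreated HT-29, or -0.31 ± 0.24. Here the third array was the high one, and without it the difference was 0.05. All these signals lay below the medians of their arrays and may be background, so the size is uncertain. H2AC13 (9.14, 9.25 and 9.78 with FA, 9.52, 9.75 and 9.62 without) differed by -0.24 ± 0.16 and by -0.25 without replicate 3, one of the few values that this array hardly moved. H1-1 read 4.51, 4.76 and 4.79 with FA and 4.82, 4.98 and 4.73 without, or -0.16 ± 0.22, which turned to 0.01 after quantile normalization. No gene had groups that did not overlap (background 1.41% higher and 3.84% lower). Of the 37 clusters with several symbols 33 were higher with a median of 0.31, and 17 with a median of -0.04 without replicate 3.

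**Figure D4:**
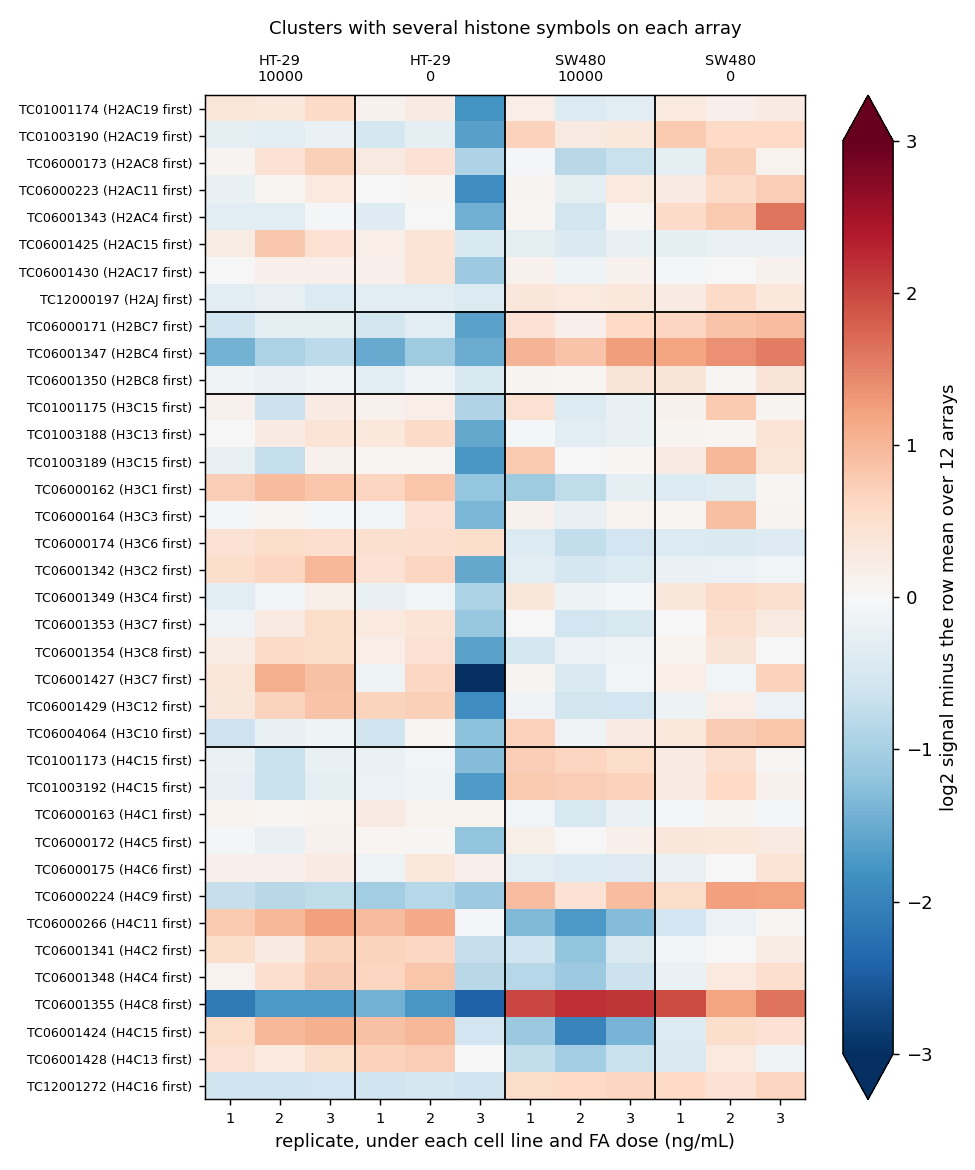
Log2 signal of the 37 clusters with several histone symbols (rows, by family, with the symbol listed first) on the 12 arrays (columns, by cell line and FA dose in ng/mL), as the difference from the row mean. The H3 rows are bluer in FA-treated than in untreated SW480, replicate 3 of untreated HT-29 is low in 35 of 37 rows, and TC06001355 differs most between the lines.

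The difference of the FA effects, SW480 minus HT-29, was tested in the same fit. Among the histone genes 7 differences were positive (24.1%, against 61.6% of all clusters) and 22 negative (75.9%, against 38.1%). The median was -0.41, against 0.05 over all clusters. After median centring it was -0.51, against -0.05 over all clusters. Without untreated HT-29 replicate 3 it was -0.15, against -0.01 over all clusters. In limma 0 were called (0% of all clusters), 3 had an unadjusted p under 0.05 (3.29% of all clusters), and 1 passed the study thresholds, H4C3 at -1.60 ± 0.61 (limma adjusted p = 0.94), which was -1.01 without that array. The background was 0.637% lower and 0.889% higher, or 430 and 600 clusters, which became 569 and 415 after median centring. H1-4 had -1.67 ± 1.05 and H2BC12 -1.24 ± 0.98, and -0.59 and -0.20 without that array. The positive end held H2BC1 with 0.34 (-0.02 without that array), H2BC15 with 0.29 and H2BC14 with 0.26. The signals of H2BC1 lay below the array medians in every group and may be background. No difference between the lines in their FA effect was shown for any of the 29 genes, and the number past the thresholds was 0 without FA-treated HT-29 replicate 3, FA-treated SW480 replicate 2, or untreated SW480 replicate 2 or 3, and 7 without untreated HT-29 replicate 2. It was 2 without untreated or FA-treated HT-29 replicate 1 or FA-treated SW480 replicate 1, and 5 without untreated SW480 replicate 1.

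The genes of DNA synthesis in S phase had small differences in SW480, most of them positive. Of 28 measured genes 27 had higher and 1 lower means with FA, with a median of 0.12, and 0 had an unadjusted p under 0.05 in limma. After quantile normalization 20 were higher and 8 lower, and after median centring 28 were higher. RRM2, a subunit of ribonucleotide reductase, differed by 0.44, TYMS, which makes thymidylate, by 0.26, and PCNA, the sliding clamp, by 0.01. Of 24 genes of histone transcription and mRNA end processing 18 were higher and 5 lower, with a median of 0.05. SRRT differed by 0.26 (limma adjusted p = 1.0) and CCNE2, a cyclin that acts with CDK2, by 0.35 (limma adjusted p = 1.0), while NPAT differed by 0.08, HINFP by -0.05 and SLBP by 0.05. Of 24 histone chaperones and deposition factors 21 were higher and 2 lower, with a median of 0.07, and CHAF1A and CHAF1B of the CAF-1 complex differed by 0.09 and 0.18. None of these genes was called, and in HT-29 the S phase list had a median of 0.25 (0.06 without untreated replicate 3).

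Between the untreated lines part of the histone genes differed in both directions. Of the 29 genes 14 were called at an adjusted p under 0.05 (48.3%, against 42.7% of all clusters), 11 higher in SW480 (background 24.7%) and 3 lower (background 18.0%). The share is near that of all clusters. Of the 8 H2A genes 5 were called, all higher in SW480, of the 14 H2B genes 5 higher and 2 lower, of the 5 H1 genes 1 higher and 1 lower, and of the 2 H4 genes 0. The median log2 difference, untreated SW480 minus untreated HT-29, was 0.39, against 0.01 over all clusters, and 0.07 without untreated HT-29 replicate 3. Without that array 18 genes were called (62.1%, against 53.9% of all clusters), 11 higher (background 33.6%) and 7 lower (background 20.3%). Of the 28 S phase genes 23 were called, all higher in SW480, with a median of 1.12, and without that array 26 were called, 23 higher and 3 lower.

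H2BC21 read 9.78, 9.57 and 9.98 in untreated SW480, against 7.70, 8.21 and 5.94 in untreated HT-29. Its log2 difference was 2.49 ± 0.46 (limma adjusted p = 0.0018), and 1.82 without HT-29 replicate 3. H2BC12 read 13.74, 13.81 and 13.91 in SW480 and 12.22, 12.52 and 9.24 in HT-29, or 2.49 ± 0.69 (adjusted p = 0.016 in limma), and 1.45 without that array. H2AC6 read 8.01, 8.22 and 8.09 in SW480 and 6.31, 6.56 and 4.35 in HT-29, or 2.37 ± 0.47, and 1.67 without. In all 3 the lines were apart, with HT-29 replicate 3 lowest.

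H2AC25 (1.63), H2AC14 (1.41), H2AC13 (1.26), H2AC16 (1.26), H2BC5 (1.22), H2BC11 (1.04), H1-5 (1.00) and H2BC3 (0.51) were also higher in untreated SW480, with limma adjusted p-values of 8.9e-06 to 0.0049. Without HT-29 replicate 3 these 8 differences were 1.36, 1.35, 1.26, 1.06, 1.12, 0.91, 0.99 and 0.46, and all stayed called. H2AC14 read 3.42, 3.57 and 3.31 in untreated HT-29, below the array medians, where a signal may be background, so its size is uncertain. H1-5 read 4.74, 4.86 and 4.76 in untreated HT-29, not far above the array medians (4.40, 4.36 and 4.75), so its size is uncertain too. H2BC11's other cluster, TC06001385, differed by 2.11 against 1.04 for the one used, so the 2 clusters of this gene gave different sizes in the same direction. RefSeq spans of H2BC12 (8566 bases), H2BC21 (2224 bases) and H2BC5 (13229 bases) are longer than those of the other 26 genes, which cover 386 to 797 bases. All 3 were among the 11 of 29 genes called higher in SW480. Shorter genes such as H2AC6 (519 bases, 2.37) were among the 11 as well, and a link with span was not tested. H1-4 read 14.94, 15.60 and 15.22 in untreated SW480 and 14.35, 14.94 and 11.38 in untreated HT-29, or 1.70 ± 0.74 (limma adjusted p = 0.094), and 0.61 without HT-29 replicate 3.

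The gene called with the lowest log2 difference was H1-3. It read 4.05, 4 and 4 in untreated SW480, against 5.94, 6.62 and 5.81 in untreated HT-29, a log2 difference of -2.11 ± 0.21 (limma adjusted p = 2.2e-05). The lines were apart on every array, but the SW480 signals lay below the medians of their arrays (4.44 to 4.58) and may be background, so the size is uncertain. H2BC14 read 7.44, 7.67 and 7.68 in SW480 and 8.84, 8.97 and 8.65 in HT-29, or -1.22 ± 0.12 (adjusted p = 2.2e-05 in limma). H2BC1, with signals of 3.20, 3.16 and 3.22 in SW480 and 3.58, 3.49 and 4.60 in HT-29, differed by -0.70 ± 0.24 (limma adjusted p = 0.037), and by -0.34 without HT-29 replicate 3, with all these signals below the array medians. H4C3 read 11.37, 11.98 and 11.95 in SW480 and 13.06, 13.27 and 11.39 in HT-29, or -0.81 ± 0.43 (limma adjusted p = 0.16), and -1.40 (adjusted p = 0.0012 in limma) without HT-29 replicate 3. H2BC10, H1-2 and H2BC13 were also called once that array was left out, all lower in SW480, with -1.29, -0.76 and -0.55, against -0.40, -0.05 and -0.24 with it. The other 11 genes that were not called with all arrays, among them H1-4, H2BC17 (0.61), H2AC20 (0.46), H2BC26 (0.18) and H2AC21 (-0.41), were not called without it either, when these 4 genes had -0.01, -0.26, 0.11 and -0.80.

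**Figure D5:**
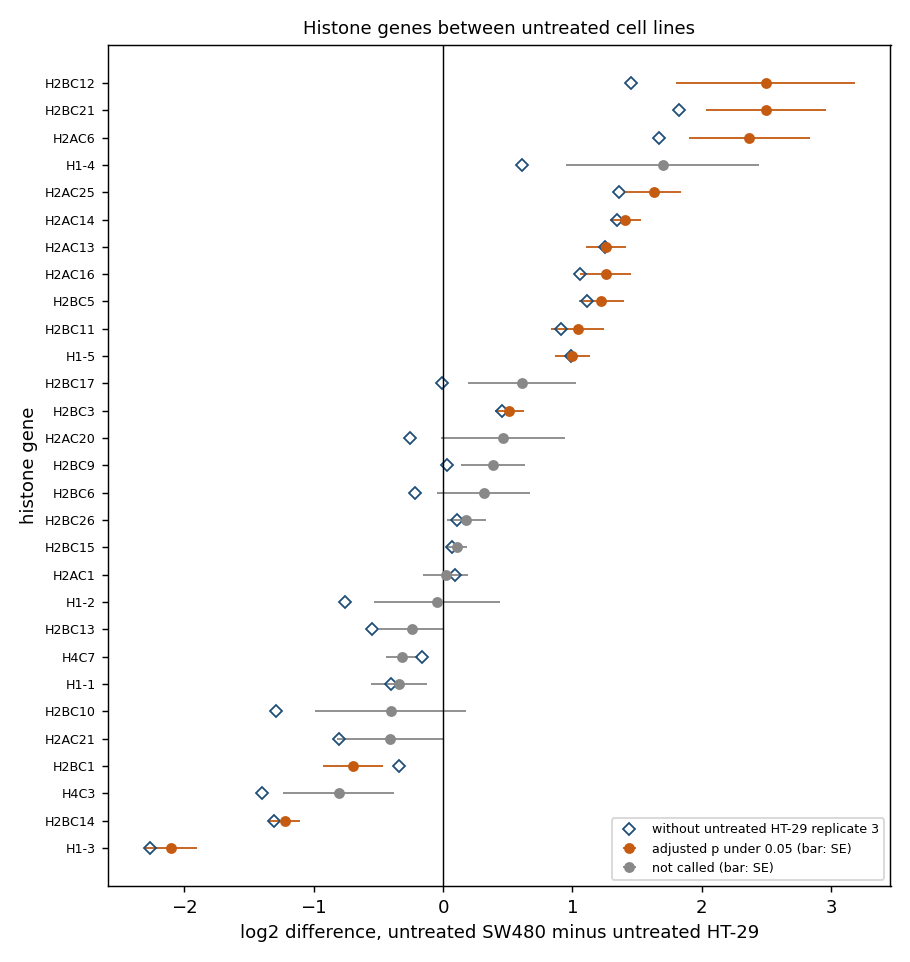
Log2 difference between untreated SW480 and untreated HT-29 for each of the 29 histone genes, with bars of 1 SE from limma, orange where the adjusted p is under 0.05, and open diamonds without untreated HT-29 replicate 3. H2BC12, H2BC21 and H2AC6 lie highest (2.37 to 2.49) and H1-3 lowest at -2.11.

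H2A and H2B genes commonly lie head to head and share the DNA between their starts. In the promoter table, 11 such pairs had starts within 600 bases, 194 to 248 bases apart, and in 5 of them both genes were among the 29. H2AC14 and H2BC14 start 245 bases apart and went opposite ways between the untreated lines, 1.41 for H2AC14 and -1.22 for H2BC14. H2AC20 and H2BC21 had 0.46 (-0.26 without HT-29 replicate 3) and 2.49, H2AC25 and H2BC26 1.63 and 0.18, H2AC13 and H2BC13 1.26 and -0.24, and H2AC1 and H2BC1 0.02 and -0.70. The difference between the genes of a pair was not tested. In FA-treated against untreated SW480 H2AC14 had -0.41 and H2BC14 0.21. Most of the stretch between the starts, 230 bases, is shown because both genes were called and in opposite directions, with ATTTGCAT, CCAAT and TATAAA (or their complements) in capitals.
H2BC14 upstream stretch, chr6:27814792-27815021, plus strand, ending at the base before the start of H2BC14: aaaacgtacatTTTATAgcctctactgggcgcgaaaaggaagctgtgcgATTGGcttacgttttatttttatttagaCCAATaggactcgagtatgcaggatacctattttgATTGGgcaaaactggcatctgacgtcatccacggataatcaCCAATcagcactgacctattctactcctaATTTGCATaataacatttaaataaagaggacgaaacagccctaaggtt
A stretch of 100 bases before the start follows for the 2 H2B genes that were highest in SW480, with ATTTGCAT and TATAAA in capitals.
H2BC12, chr6:27146859-27146958, minus strand: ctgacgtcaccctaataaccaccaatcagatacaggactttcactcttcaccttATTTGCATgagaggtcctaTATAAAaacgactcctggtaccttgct
H2BC21, chr1:149886683-149886782, minus strand: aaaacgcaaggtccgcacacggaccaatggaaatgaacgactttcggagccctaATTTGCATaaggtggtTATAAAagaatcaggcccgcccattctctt
In both the octamer begins 46 bases before the start and a TATAAA follows it. A match is a description of the letters and not of binding.

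Among the clusters with several symbols 13 of 37 were called between the untreated lines (35.1%, against 42.7% of all clusters), 11 higher and 2 lower. Without HT-29 replicate 3 there were 20 (54.1%, against 53.9% of all clusters), 12 higher and 8 lower. TC06001355 (H4C8 listed first) read 9.71, 8.92 and 9.38 in untreated SW480, against 6.33, 6.00 and 5.33 in untreated HT-29, or 3.45 ± 0.26 (limma adjusted p = 3.6e-06). This was the largest difference of the 66 representative clusters, and the lines were far apart on all arrays. TC06001347 (H2BC4 first) had 2.71 ± 0.19 and TC06000224 (H4C9 first) 1.99 ± 0.19, and the 3 had 3.17, 2.64 and 1.94 without HT-29 replicate 3. TC06000224 read 4.17, 4.35 and 4.11 in untreated HT-29, below the medians of these arrays (4.40, 4.36 and 4.75). These signals may be background, so its size is uncertain. TC06000174 (H3C6 first) and TC06000266 (H4C11 first) were the lower ones, with -0.91 and -0.90. The H4 clusters were thus split here too, with TC06001355 higher and TC06000266 lower while both list the same 14 genes.

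Of 14 replacement and other histone genes outside the naming pattern 11 were called between the untreated lines (78.6%, against 42.7% of all clusters), 7 higher and 4 lower in SW480, and the same numbers without HT-29 replicate 3. MACROH2A2, a variant H2A with a large extra domain, had a log2 difference of 4.02, with a mean of 8.05 in untreated SW480 and 4.03 in untreated HT-29. The HT-29 signals lay below the medians of their arrays and may be background, so the size is uncertain. H2AZ1 differed by -1.28 and H2AZ2, which encodes a closely related variant, by 1.63. CENPA, the H3 variant of centromeres, differed by 1.45. Of the genes of histone transcription and mRNA end processing 19 of 24 were called (79.2%), 17 of them higher in SW480, among them YY1 (1.41) and LSM1 (1.53). Of the chaperones 18 of 24 were called (75%), 17 higher, among them CHAF1A (0.76) and RBBP7 (1.40). Without HT-29 replicate 3 these lists had 19 calls each, 17 and 16 of them higher.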

How the data were processed

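Total RNA of HT-29 and SW480 cells was hybridised to 12 arrays. The authors deposited log2 signals per transcript cluster, made in Transcriptome Analysis Console 4.0 by SST-RMA (RMA after a signal space transformation, which stretches the range of array signals; the labels name RMA). It summarises and normalizes probes over all arrays, and the background-corrected probe signals were not used here, so a signal near the array median may be background. The values of 67528 clusters were used as deposited, with 0 missing. Names are those of the platform annotation, and positions are from RefSeq. The number of arrays, 3 per group, limits the precision. limma 3.58.1 (R 4.3.3) was fitted to 4 group means (8 residual degrees of freedom) over all clusters, with Benjamini-Hochberg adjustment at 0.05. The study's thresholds (unadjusted p of at most 0.05, fold of at least 1.5) were applied to the same fit. Tests were tried on simulated data first. The genes named were those past a threshold, the 3 with the largest differences in each direction and the 2 brightest of each family. The genes, the lists and the tests were chosen with earlier results of these data known. Alternatives were array weights, trended robust moderation, a fit per line, a replicate block, a filter on dim clusters, quantile normalization, median centring, the mean of a gene's clusters, and leaving out each array. Promoters are from RefSeq (GRCh38.p14).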

Additional observations from a re-analysis of the deposited data

How the results depend on the processing

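The count of called histone genes was 0 in both FA comparisons and in their difference under every alternative run, and 13 to 21 between the untreated lines. The alternatives for the clusters with several symbols were chosen after seeing the data. The labels do not say whether replicate numbers pair the arrays. The correlation of same-numbered deviations was -0.07, 0.16 and -0.02 in HT-29 and -0.08, 0.01 and 0.40 in SW480. With 3 arrays per group these values cannot settle it. With the replicate block the histone genes past the study thresholds in SW480 were 0 against 1, the calls over all clusters were 0 against 4 in SW480 and 27136 against 28865 between the untreated lines, and no named gene changed its call. Leaving out 1 array each time, the histone genes past the thresholds ranged over 0 to 8 (HT-29), 0 to 3 (SW480) and 0 to 7 (difference), and the clusters with several symbols over 0 to 8, 3 to 8 and 3 to 21. With quantile normalization these thresholds gave 2 histone genes in SW480, 3 in the difference, and 3 clusters with several symbols in HT-29 and 12 in the difference. With median centring they gave 0 histone genes in SW480 and 2 in the difference. With array weights they gave 2 histone genes in the difference, and 1 cluster with several symbols in HT-29 and 12 in the difference.

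Median log2 differences moved most where untreated HT-29 took part. For the untreated lines the histone genes had 0.11 with array weights and 0.0683 to 0.62 leaving out 1 array, and the clusters with several symbols 0.14 with array weights, 0.17 with quantile normalization and 0.0433 to 0.80 leaving out 1 array. Of these clusters 25 were called with array weights and 12 to 20 leaving out 1 array. In HT-29 their FA median was 0.0131 with array weights and -0.04 to 0.57 leaving out 1 array. Among the genes named for a comparison by the rule, 4 values turned sign in that comparison: H2BC1 in HT-29 with array weights (0.0023) and without untreated replicate 3 (0.045, from -0.51 to 0.045 over all arrays left out), H2BC1 in the difference without that array (-0.0183, from -0.0183 to 0.54), and H1-1 in HT-29 with quantile normalization (0.0117). In the untreated lines H4C3 and H1-4 were called as well with array weights and with quantile normalization, and H1-4 without untreated HT-29 replicate 2. Over all clusters array weights called 4797 in HT-29 against 0, 15 in SW480 against 4 and 39 in the difference against 0, and median centring called 0 in SW480. The cause was not tested.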

Other observations

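Some clusters had the same value on all 3 arrays of a group. Among the 29 histone genes this held for H2AC20 and H2BC1 in FA-treated HT-29 (6.9%, against 12.3% of all clusters) and for H2AC1 in FA-treated SW480 (3.45%, against 10.4%), and for 0 genes in either untreated group (against 3.13% of all clusters in untreated HT-29 and 6.72% in untreated SW480). The spread between replicates of such a gene is 0 in that group.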
